A study of Daphnia magna with 3 samples.

Results

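The lipases and lipid transport proteins of Daphnia magna, a small freshwater crustacean of the plankton, were examined at the level of their transcripts. They were the 135 of 47109 gene records whose deposited description contained lipase (70 records, phospholipases left out), apolipo (31), lipoprotein receptor (21), fatty acid-binding (9, a large glycoprotein among them) or fatty acid transport (4). No description contained Niemann, lipid storage or perilipin, and no record had to be left out for the word vitellogenin. The rule used the wording of the descriptions and no measured value, although it was set with earlier results of these data known. The series consists of 1 group, wild-type females of the NIES strain kept under nutrient-rich feeding, in 3 libraries numbered as replicates 1, 2 and 3. Each library was made from the whole bodies of 5 pooled animals aged 12 days that were at the release of the second clutch and whose eggs had been flushed out. The strain is propagated as a clone, so that animals share a genotype, and neither the tissue in which a transcript was made nor differences between single animals can be read from pooled bodies. Starved animals and mutants of the wider study were not analysed here, so that values are levels in well-fed wild type and their spread between libraries, not effects of food or genotype.

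In animals, dietary fat is split by lipases secreted into the gut, and the fatty acids are taken up, bound inside cells by small fatty acid-binding proteins and activated for storage as triacylglycerol. Between tissues, lipid travels in the haemolymph of arthropods on lipoprotein particles built around large carrier proteins, which are captured by receptors of the low-density lipoprotein receptor family. Stored fat is released by intracellular lipases, and in Daphnia fat reserves are known to follow the cycle of molting and egg provisioning. The sequences of these genes are not shown here.

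Gene records received 8843488, 8679171 and 9092389 counts in replicates 1, 2 and 3, and 19927 records were detected in every library. CPM denotes counts scaled by the effective library size, and a record with 0 counts may have a level of up to 0.354, 0.353 or 0.309 CPM in these libraries, which 3 counts would give. Words for tissues in the descriptions found 103 of 146 gut records in every library and 38 of 60 of fat body and haemolymph. They likewise found 21 of 27 for muscle, 34 of 45 for the nervous system, 7 of 10 for ovary and germline and 144 of 427 for cuticle, so that every list held detected records. The words do not show that a record is specific to its tissue, and the nervous system list includes syntaxin-12, syntaxin-6 and syntaxin-5. As whole bodies were pooled, fewer cells of a type and less RNA per cell cannot be told apart.

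Of the 135 lipid records, 86 had counts in every library (63.7%), 24 others in some of the libraries and 25 in none. Of all records with a description, 65.5% had counts in every library. The shares without counts were 18.5% of the lipid records and 38.9% of all 47109 records, most of which carry no description. By mean CPM, 10 lipid records stood at 100 or more (7.41%, against 3.36% of all records) and 31 between 10 and 100 (23.0%, against 15.7%). Another 30 stood between 1 and 10 (22.2%, against 14.5%) and 39 below 1 with some counts (28.9%, against 27.5%). These shares of all records include the many records without a description. Over records found in every library, the median level was 8.59 CPM for the lipid records and 7.28 CPM for all records, and 15.7 CPM for records with any description. Per length, the median was 5.55 TPM for lipid records and 6.25 TPM for all records (TPM, a level scaled by record length to a fixed sum per library, is the unit used here between genes). The median lipid record was thus near the median of all records, but in CPM below that of records with a description, which every lipid record has. A few members held most of the signal.

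The lipid records took 1.85%, 2.13% and 1.54% of all counts in replicates 1, 2 and 3, or 1.84 ± 0.298% (SD, n = 3). The Wilson 95% intervals were 1.84 to 1.86%, 2.12 to 2.14% and 1.53 to 1.55%, so that the libraries differed by more than counting error. A single record, the retinoid- and fatty acid-binding glycoprotein, supplied 74.4%, 77.8% and 65.1% of these lipid counts. Without it the share was 0.475%, 0.474% and 0.537%, and the order of the libraries changed, with replicate 3 the highest. By TPM, which does not favour long transcripts, the lipid records summed to 9232, 9003 and 9501, or 0.923%, 0.9003% and 0.9501% of the transcript total. The families ranked differently on that scale. Fatty acid-binding proteins led with 4726 ± 377 TPM, followed by apolipoprotein D with 2275 ± 257 TPM and the glycoprotein with 1453 ± 378 TPM (SD, n = 3). All 70 lipase records together reached 458 ± 44.7 TPM, the lipoprotein receptor family 184 ± 18.0 TPM and the fatty acid transport proteins 98.0 ± 16.8 TPM. The 95% intervals and the limits for a count of 0 cover counting error only.

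**Figure D1:**
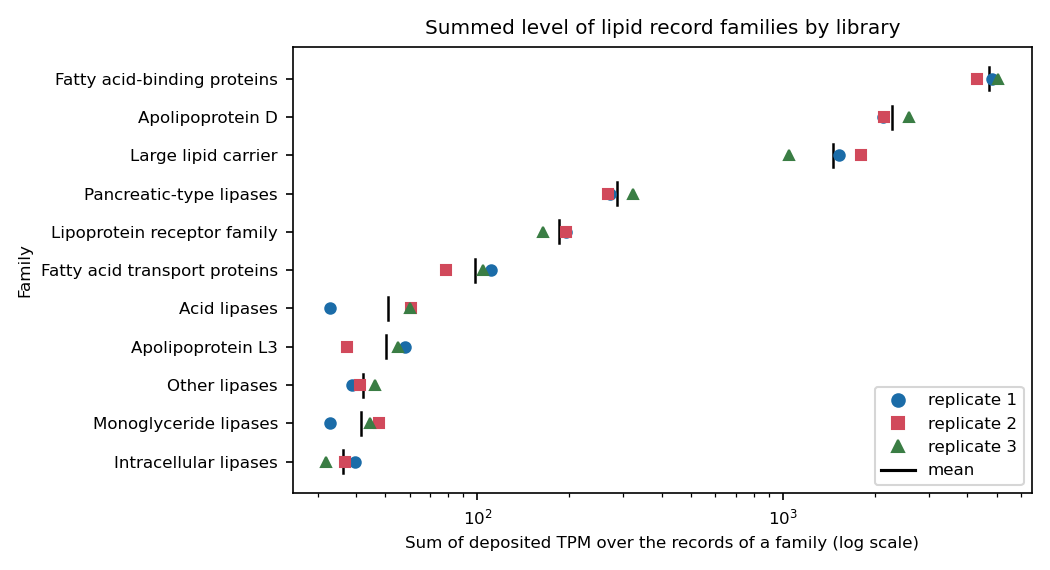
Summed deposited TPM (log scale) of each family of lipid records in replicates 1, 2 and 3, with the mean as a vertical bar. Fatty acid-binding proteins lead in every library, and acid lipases stand lower in replicate 1 (32.8) than in replicates 2 (60.5) and 3 (59.9).

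The large carrier came first by counts. The retinoid- and fatty acid-binding glycoprotein (Dapma7bEVm009632sc02850NoSplit; scaffold02850, 616118 to 631547, minus strand) carries the name of the Drosophila apolipophorin, the backbone of the lipoprotein particles of insect haemolymph, which belongs to the same large lipid transfer family as vitellogenin. It had 14384, 16944 and 9375 CPM, with 121793, 143949 and 90958 counts. Replicate 3 was the lowest and replicate 2 the highest, a 1.81-fold range. Its biological coefficient of variation (BCV) was 0.258, against 0.234 along the fitted trend at its abundance. The BCV is an estimate of the spread between replicates beyond counting noise, in which the value of each record is drawn towards that trend. A low BCV therefore ranks a record as steady but can overstate the spread of that record alone. The length of the glycoprotein, 10808 bases, put it behind a fatty acid-binding protein of 514 bases in TPM. Per library, the glycoprotein stood at 0.376, 0.475 and 0.243 times the TPM of the muscle-like fatty acid-binding protein. The summed TPM of the fat body and haemolymph records, which include the vitellogenins, followed the same order of libraries, with 88949, 101827 and 65400, and their part in the level of the carrier was not tested.

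Fatty acid-binding proteins, small proteins that hold fatty acids inside cells, were the most abundant family per length. The muscle-like member (Dapma7bEVm000432sc00512NoSplit) had 4050, 3774 and 4290 TPM, or 4038 ± 258 TPM (SD, n = 3), and was the top lipid record on that scale. Its BCV of 0.187 was below the trend of 0.233, and below the median of 0.286 over the lipid records with a mean of at least 1 CPM. Lying below the trend is common, since the BCV lay above it in 22.3% of all records with such a mean. The counts of this record still differed between libraries beyond counting noise, by the chi-square test given below. A liver-type member (Dapma7bEVm012412sc00512NoSplit) had 573, 315 and 492 TPM, lowest in replicate 2. A heart-type member (Dapma7bEVm011089sc00512NoSplit) had 37.7, 70.7 and 88.5 TPM, lowest in replicate 1. These records lie next to each other on the minus strand of scaffold00512 (82011 to 82697, 83709 to 84482 and 85898 to 87280), yet their proportions were not constant. The liver type amounted to 0.142, 0.083 and 0.115 times the TPM of the muscle-like type in replicates 1, 2 and 3, and the heart type to 0.0093, 0.0187 and 0.0206 times. The adipocyte-like member on scaffold02482 was steady at 78.9, 80.05 and 91.9 TPM, with a BCV of 0.185. A further pair of records, described as fatty acid-binding-like protein 6, lies further along the same strand of scaffold00512 and was close to the detection limit, with at most 9 counts in any library. In all, 7 of 8 records of the family were detected in every library, the highest share among families of more than 3 records.

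Apolipoprotein D is a lipocalin, a small secreted protein with a pocket for hydrophobic ligands, and its Drosophila relatives are known for roles in lipid handling and stress resistance. The family was large but uneven, since 11 of its 30 records were detected in every library, 11 had no counts and 6 had a mean of at least 10 CPM. Neighbours on scaffold00642 supplied most of its transcripts. One (Dapma7bEVm004441sc00642NoSplit; 1393512 to 1394542, minus strand) had 971, 863 and 1054 TPM, and the other (Dapma7bEVm002061sc00642NoSplit; 1391460 to 1392223, minus strand) had 774, 693 and 900 TPM. They kept a near constant proportion, 0.797, 0.803 and 0.854 by TPM, and in both replicate 3 was the highest and replicate 2 the lowest. A record on the plus strand (Dapma7bEVm016956sc00642Split02) covers the whole of the second neighbour and had 194, 173 and 216 TPM. Its counts were 34.0%, 34.0% and 32.6% of those of the record it covers, and since the strand setting of the counting is not known, reads of this pair cannot be told apart. The record of scaffold00687 described as Apolipoprotein D (Dapma7bEVm002062sc00687NoSplit; 2210053 to 2211656, minus strand) overlaps no other record and behaved otherwise. It had 108, 290 and 263 CPM in replicates 1, 2 and 3, so that replicate 1 lay more than 2-fold below both others. A lone apolipoprotein L3-like record (scaffold00781) had 73.3, 47.2 and 65.9 CPM, lowest in replicate 2.

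**Figure D2:**
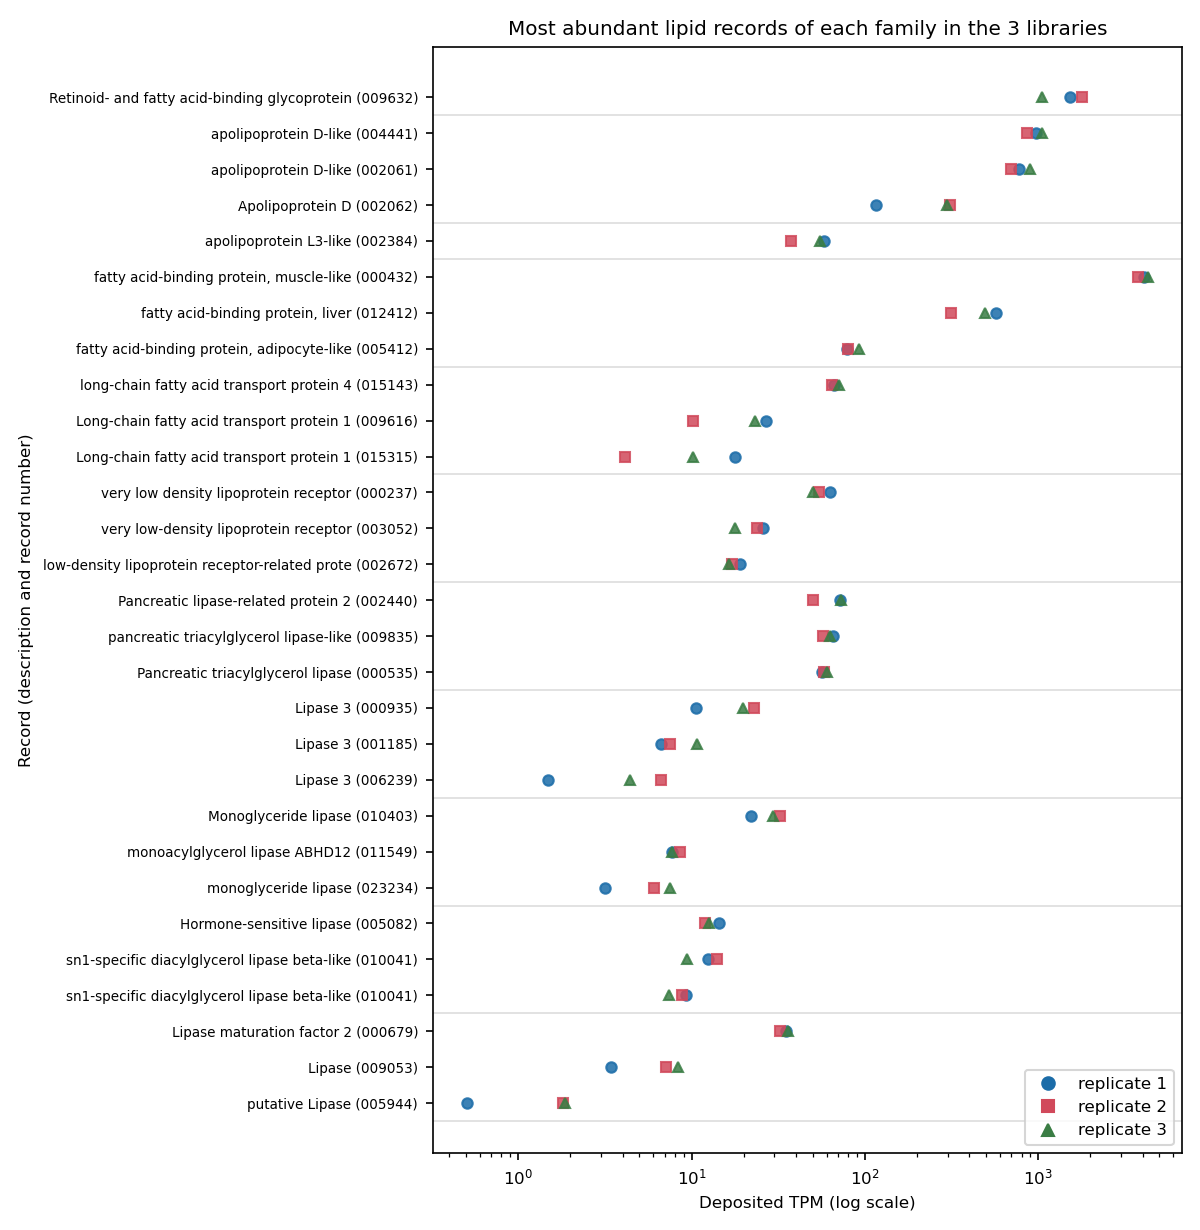
Deposited TPM (log scale) of the most abundant records of each family, up to 3 per family, in replicates 1, 2 and 3. Most records keep their symbols close together. Among those spread out are Apolipoprotein D of scaffold00687 (116 TPM in replicate 1, 310 and 296 TPM in replicates 2 and 3) and the fatty acid transport protein 1 records (lowest in replicate 2). Lipase 3 of scaffold00626 (Dapma7bEVm006239sc00626NoSplit; 1.48, 6.64 and 4.39 TPM) and putative Lipase of scaffold02581 (0.505, 1.81 and 1.85 TPM) are spread out as well.

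Fatty acid transport proteins bring long-chain fatty acids into cells and join them to coenzyme A, and all 4 records carried a GO term for a ligase activity. Type 4, whose term was the specific one for long-chain fatty acids (Dapma7bEVm015143sc00512NoSplit; scaffold00512, 687609 to 693354, minus strand) was the main one, with 147, 144 and 149 CPM and a BCV of 0.183. It was among the steadiest of all lipid records. The other detected records were both described as type 1 and lie 1773 bases apart on the plus strand of scaffold01877. The first (Dapma7bEVm009616sc01877NoSplit; 31696 to 34401) had 55.3, 21.1 and 45.1 CPM. The second (Dapma7bEVm015315sc01877Split02; 36175 to 38835) had 29.4, 6.83 and 15.98 CPM, with 249, 58 and 155 counts. In both, replicate 2 was at least 2-fold below each other library and replicate 1 was the highest. Their counts did not stand in a fixed ratio, at 53.2%, 32.4% and 35.4% of the first record, and both overlap further records, so their reads may be shared. The fourth record had no counts.

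The lipoprotein receptor family takes up lipoprotein particles, and in egg-laying animals also yolk proteins, by endocytosis, while some members act in signalling. Of its 21 records, 17 were detected in every library and 10 had a mean of at least 10 CPM. The wording also took in a record described as an adapter protein of the receptor (Dapma7bEVm005559sc01581NoSplit). Per length, a record of scaffold03311 described as very low density lipoprotein receptor (Dapma7bEVm000237sc03311Split01) was the highest at 62.7, 54.0 and 49.9 TPM, although its only GO terms for function were chitin deacetylase activity and chitin binding. Another of scaffold03326 with that description (Dapma7bEVm003052sc03326Split01), which carried calcium ion binding, had 25.9, 23.8 and 17.7 TPM. Both were lowest in replicate 3. Receptor-related protein 3-like (scaffold00512) was steadier, with 18.9, 17.1 and 16.5 TPM. The very long members showed a wider gap. Receptor-related protein 1, a large endocytic receptor in vertebrates (Dapma7bEVm010796sc02486NoSplit, 15802 bases), had 192, 235 and 103 CPM. The main part of receptor-related protein 2, known as megalin in vertebrates (Dapma7bEVm018400sc01581Split01, 13298 bases), had 124, 116 and 53.4 CPM, which placed replicate 3 more than 2-fold below both others. The part of the same model on scaffold00739, of 1858 bases, had 23.0, 22.4 and 17.7 CPM, lower in replicate 3 by less. Receptor-related protein 6, a co-receptor of Wnt signalling, had 65.2, 46.5 and 39.4 CPM. Receptor-related protein 4 had 30.0, 26.7 and 19.0 CPM, again lowest in replicate 3.

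The widest spread of any lipid record with a mean of at least 10 CPM belonged to a record described as a putative low density lipoprotein receptor (Dapma7bEVm002563sc02649NoSplit; scaffold02649, 204150 to 210689, minus strand). Its GO terms, metal ion binding, oxygen transporter activity and heme binding, go against that description. It had 8, 335 and 173 counts, or 0.945, 39.4 and 17.8 CPM in replicates 1, 2 and 3. Replicate 1 lay below and replicate 2 above both other libraries by more than 2-fold, and the BCV was 0.865 against a trend of 0.256. It overlaps another record. A mismatch of description and GO terms was also seen in 6 of the 21 records, all described as receptor-related protein 2, which carried GO terms of ATP binding and receptor tyrosine kinase signalling. None of these 6 reached a mean of 10 CPM, the highest standing at 9.18 CPM.

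Lipases of the pancreatic type are secreted enzymes that split triacylglycerol or phospholipid, and 31 of the 32 records carried a GO term for the extracellular region. Of these records, 19 were detected in every library and 6 had a mean of at least 10 CPM. The most abundant was pancreatic lipase-related protein 2 on scaffold03124 (Dapma7bEVm002440sc03124NoSplit; 1637405 to 1639373, plus strand) with 71.7, 50.4 and 73.0 TPM. A triacylglycerol lipase-like record on scaffold02850 (Dapma7bEVm009835sc02850NoSplit) had 65.3, 57.2 and 62.5 TPM. A pancreatic triacylglycerol lipase on scaffold02545 (Dapma7bEVm000535sc02545NoSplit) had 56.2, 58.0 and 60.7 TPM. These 3 records did not differ from each other beyond the spread between libraries, with 65.0 ± 12.7, 61.7 ± 4.12 and 58.3 ± 2.28 TPM (SD, n = 3). The record of scaffold02545 overlaps no other and had the smallest BCV of the lipid records with a mean of at least 10 CPM, 0.182. A further lipase-related protein 2 (Dapma7bEVm000577sc03124NoSplit) was less steady, at 25.4, 29.6 and 46.3 TPM, highest in replicate 3.

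The acid lipases, relatives of the gastric and lysosomal acid lipases of mammals, comprised 23 records, all described as Lipase 3 or putative Lipase 3. They were low, with a median of 1.77 TPM in the 16 records found in every library, and only 3 reached a mean of 10 CPM. Replicate 1 was the low library for most of them. The highest (Dapma7bEVm000935sc00715NoSplit; scaffold00715, 209443 to 215339, plus strand) had 145, 317 and 298 counts, or 17.1, 37.3 and 30.7 CPM in replicates 1, 2 and 3. Another on scaffold00626 (Dapma7bEVm006239sc00626NoSplit) had 18, 81 and 58 counts, and its neighbour (Dapma7bEVm001185sc00626NoSplit) had 90, 102 and 159 counts. In each of these records replicate 1 was the lowest library.

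Of the 12 acid lipase records with a mean of at least 1 CPM, 11 were lower in replicate 1 than in the mean of the others, against 48.2% of all 15816 such records, and the median deviation was -0.97 on the log2(CPM + 0.5) scale. The exception was a record of scaffold02140 (Dapma7bEVm018680sc02140NoSplit) with 33, 27 and 16 counts. The same 11 of 12 were obtained with DESeq2 size factors and with the deposited TPM. Among the records that overlap no other it was 5 of 5 (44.9% of all such records), and among all 21 detected acid lipases 18 (53.3% of all detected records). Summed over the family, the counts were 509, 903 and 960. Many of these records share a description and lie on the same few scaffolds, and no sequences were compared, so whether reads were divided between them was not tested. On scaffold00715 a run of 6 acid and unclassified lipases had 208, 470 and 469 counts, and on scaffold00626 a run of 3 had 108, 187 and 222. Beside this, the gut records summed to 15479, 15491 and 16848 TPM with a median deviation of 0.01 in replicate 1, and cuticle records to 14972, 17939 and 18333 TPM with a median deviation of -0.08. The part of either tissue in the level of the acid lipases was not tested. Since the libraries are replicates of 1 group, the difference is one between pools of animals or their preparations.

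**Figure D3:**
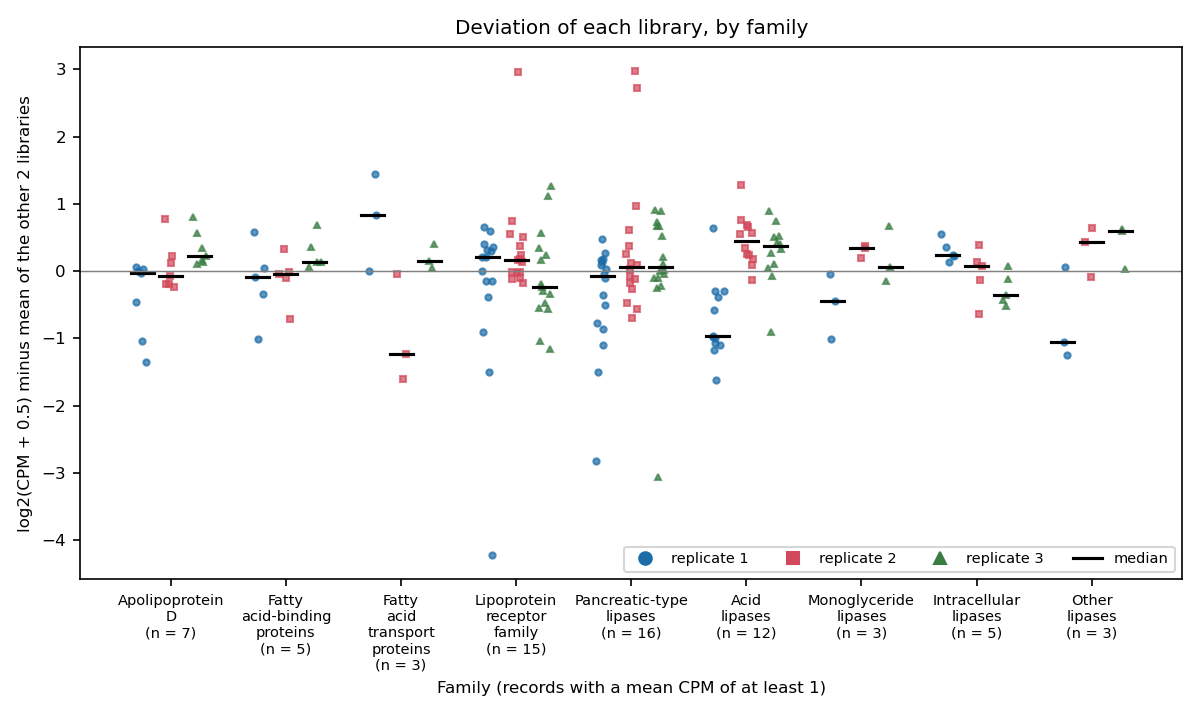
Deviation of each library, as log2(CPM + 0.5) minus the mean of the other 2 libraries, for lipid records of at least 1 CPM on average, by family, with medians as black bars. Acid lipases lie below 0 in replicate 1 in 11 of 12 records (median -0.97). The pancreatic-type lipases have medians near 0 in every library, with 9 of 16 records below 0 in replicate 1.

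Lipases that act inside cells were modest in level. Hormone-sensitive lipase, which releases stored fat (Dapma7bEVm005082sc00117NoSplit; scaffold00117, 17801 to 20351, plus strand), had 14.3, 12.0 and 12.7 TPM with a BCV of 0.198. Records for sn1-specific diacylglycerol lipase beta, which makes a signalling lipid from diacylglycerol in mammals, had 12.4, 14.0 and 9.45 TPM on scaffold02150 and 9.28, 8.84 and 7.37 TPM on scaffold00687, as parts of 1 split model. The chi-square test of homogeneity over libraries called 0 of the 5 intracellular lipases tested, with 2 at an unadjusted p under 0.05, against a background of 54.5% of all 15516 records called. Among them, the diacylglycerol lipase alpha records overlap on 1 strand and had only 48, 26 and 43 and 12, 10 and 8 counts. At such counts the test can miss differences between libraries. Monoglyceride lipase, which completes the breakdown of fat, had 22.1, 32.4 and 29.4 TPM on the plus strand of scaffold00944 (Dapma7bEVm010403sc00944NoSplit). A record on the opposite strand of the same stretch (Dapma7bEVm023234sc00944NoSplit) had 3.16, 6.04 and 7.46 TPM, also lowest in replicate 1, and reads of these overlapping records cannot be assigned with certainty. Monoacylglycerol lipase ABHD12 had 7.69, 8.58 and 7.70 TPM. Lipase maturation factor 2, a protein of the endoplasmic reticulum by its GO term, was higher than most lipases, at 34.9, 32.4 and 36.2 TPM with a BCV of 0.182. The remaining records named simply Lipase had 3.41, 7.16 and 8.35 TPM (Dapma7bEVm009053sc00715NoSplit) and 0.505, 1.81 and 1.85 TPM (Dapma7bEVm005944sc02581NoSplit). The first overlaps the most abundant acid lipase and shared its low value in replicate 1.

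Members lay close together in the genome. Chains of at least 3 members with gaps of at most 100 kb numbered 13 and held 73 of the 135 records, while members were found on 43 scaffolds in all. Within a chain the levels could differ by orders of magnitude. In the 81.6 kb on scaffold00512 that hold 5 fatty acid-binding records and receptor-related protein 3-like, mean levels ran between 0.158 and 4038 TPM. The 7 apolipoprotein D records on 4645 bases of scaffold00642 ran between 0 and 963 TPM. By contrast, a chain of 12 apolipoprotein D records on scaffold00930 had 8 records without counts and none above 7.96 TPM. The 8 pancreatic-type lipases on scaffold03124 (1336521 to 1346844) were all low, with a maximum of 5.42 TPM, whereas Dapma7bEVm002440sc03124NoSplit, the most abundant of the family, lies further along the same scaffold.

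**Figure D4:**
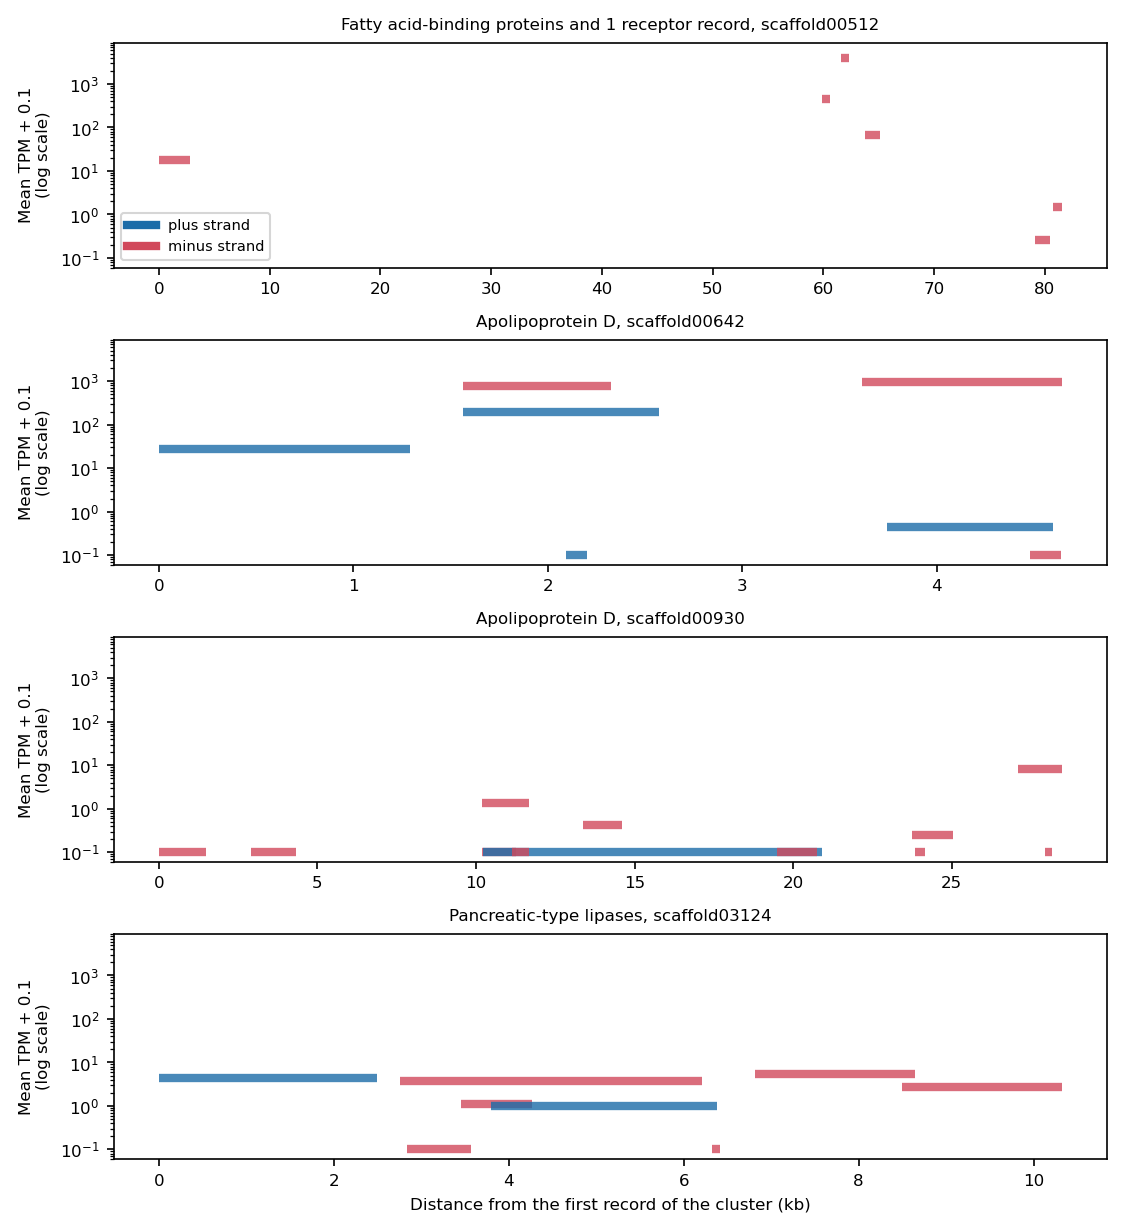
Mean deposited TPM plus 0.1 (log scale) of neighbouring lipid records along 4 stretches, against distance in kb from the first record, with plus and minus strands in separate colours. Levels span 0.158 to 4038 TPM on scaffold00512 and 0 to 963 TPM among apolipoprotein D records of scaffold00642, while those of scaffold00930 stay at or below 7.96 TPM.

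A run of 10 pancreatic-type lipases on the minus strand of scaffold01361 (1595126 to 1604801) shows how record boundaries enter such values. Summed over the run, the counts were 14, 116 and 51 in replicates 1, 2 and 3. The record Dapma7bEVm009965sc01361NoSplit had 14, 65 and 0 counts and the record Dapma7bEVm019169sc01361Split01, which covers nearly the same bases, had 0, 0 and 28. Taken alone, the first would be at least 24.7-fold higher in replicate 2 than in replicate 3, with the floor of 3 counts per library. The overlapping record had its counts in replicate 3 only, and how reads were divided between them was not tested. Another record of the run (Dapma7bEVm005111sc01361NoSplit) had 0, 51 and 14 counts. Over all members, 99 of 135 overlap another record (73.3%, against 74.0% of all records), and 54 pairs of lipid records overlap each other, 17 of them on opposite strands.

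The spread between libraries was then compared with counting noise. A chi-square test of homogeneity, adjusted by Benjamini-Hochberg over all records, called 46 of 70 lipid records whose mean count reached 10 (65.7%), against a background of 54.5% of all 15516 records tested. Whether this share differs from the background was not tested. At a mean count of at least 50 it was 33 of 48 (68.8%, against 63.8%), and in the 23 tested records that overlap no other it was 13 (56.5%, against 50.1%). Without replicate 1 the test called 24 of 76 lipid records (31.6%, against 29.0% of all records), 39 of 69 without replicate 2 (56.5%, against 45.0%) and 36 of 68 without replicate 3 (52.9%, against 38.6%). By family, 6 of 7 apolipoprotein D records, 4 of 5 fatty acid-binding proteins, 10 of 16 pancreatic-type lipases and 8 of 12 acid lipases were called. In the lipoprotein receptor family 10 of 14 records were called. Records whose GO terms differ from their description were among them (Dapma7bEVm000237sc03311Split01, Dapma7bEVm002563sc02649NoSplit and Dapma7bEVm010853sc01581NoSplit). The receptor adapter protein (Dapma7bEVm005559sc01581NoSplit) was also called. The median BCV was 0.286 for the lipid records and 0.263 for all records with a mean of at least 1 CPM. This order did not hold without replicate 2 (0.313 for lipid records, 0.324 for all records). At a mean of at least 10 CPM the medians were 0.219 and 0.214. The BCV lay above the trend for their abundance in 26 of 71 lipid records (36.6%) and in 22.3% of all records.

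Among the 41 lipid records with a mean of at least 10 CPM, 5 had 1 library that differed from both others by 2-fold or more in the same direction (12.2%, against a background of 4.19% of 8976 records). Replicate 1 was low in 2 of them (background 2.33%), Apolipoprotein D on scaffold00687 and the record described as a putative low density lipoprotein receptor. Replicate 2 was high in the latter record (background 0.368%), whose GO terms go against its description. Replicate 2 was low in both type 1 fatty acid transport proteins (background 0.301%), and replicate 3 in the main part of receptor-related protein 2 (background 1.08%). No lipid record had replicate 1 or replicate 3 as the high library, in which the backgrounds were 0.357% and 0.156%. Of the 5 records, 4 overlap another record, and Apolipoprotein D is the one that does not. With 1 library apart in each case, these values give the size of differences between pools and no effect of a condition.

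Over all 71 lipid records with a mean of at least 1 CPM, the median deviation was -0.04 in replicate 1, 0.13 in replicate 2 and 0.13 in replicate 3, against 0.02, 0.01 and 0.02 over all records. The sign of the first and second of these did not hold in the 41 lipid records with a mean of at least 10 CPM, where the median was 0.044 in replicate 1 and -0.013 in replicate 2. Over all records at that level the medians were 0.080 and -0.015. Replicate 1 was the lowest library in 35 of the 71 lipid records (49.3%), against 37.1% of all records. Of these 35, 11 were acid lipases, a family with 12 of the 71 records.

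Record length went along with the deviation of replicate 3. Across the 71 lipid records, Spearman's rho between length and this deviation was -0.41, and across all 15816 records it was -0.28, where records share libraries and are not independent. Of 22 lipid records of at least 2000 bases, 13 were lower in replicate 3 (59.1%), against 67.0% of all records of that length, so that long lipid records were not lower more often than other long records. Of the shorter lipid records, 10 of 49 were lower in replicate 3 (20.4%), against 39.6% of all shorter records. Within the receptor family, 7 of 10 long records and 2 of 5 short ones were lower in replicate 3. The glycoprotein and receptor-related proteins 1 and 2 were the 3 longest of the lipid records with a mean of at least 10 CPM, and deviated by -0.74, -1.05 and -1.16 in replicate 3. The part of length in their low values in replicate 3 was not tested.

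**Figure D5:**
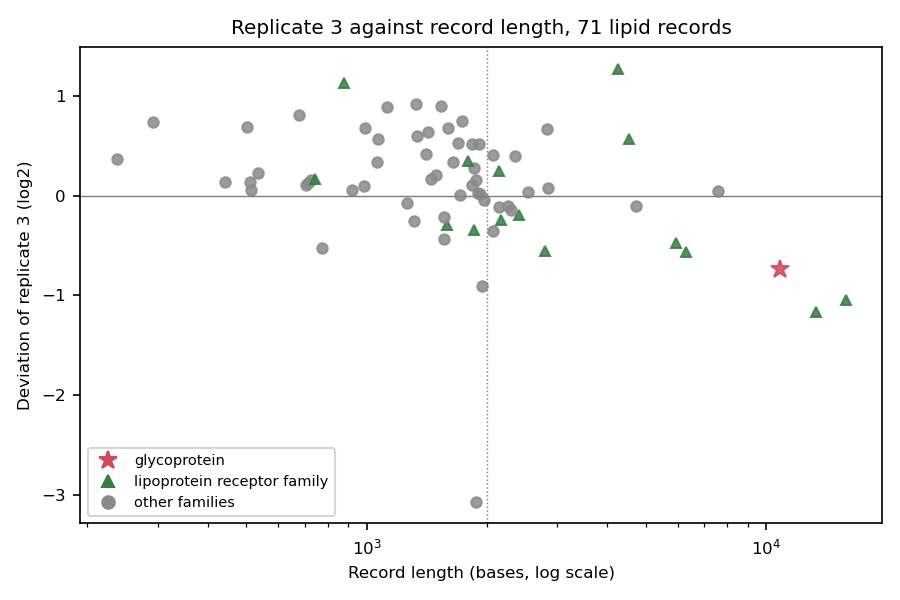
Deviation of replicate 3 (log2(CPM + 0.5) minus the mean of the other 2 libraries) against record length (log scale) for 71 lipid records. The glycoprotein is a star and records of the lipoprotein receptor family are triangles. The 3 longest records lie at -1.16 to -0.74, and the dotted line marks 2000 bases.

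Other genes of lipid uptake, esterification and transfer were read from a list of 67 records, of which 52 were detected in every library. The chi-square test called 30 of the 49 tested (61.2%, against the background of 54.5%), and none of the 34 with a mean of at least 10 CPM had 1 library apart (background 4.19%). Microsomal triglyceride transfer protein large subunit, needed to assemble lipoproteins, had 189, 217 and 186 TPM. Glycerol-3-phosphate acyltransferase 3, at the entry to triacylglycerol synthesis, had 199, 158 and 179 TPM, and diacylglycerol O-acyltransferase 1, at its last step, had 29.3, 38.3 and 35.6 TPM. Sterol O-acyltransferase 1, which esterifies sterols for storage, had 33.5, 25.7 and 26.4 TPM. In none of these records did a library stand apart by the 2-fold rule. An acyl-CoA-binding protein homolog on scaffold01581 (Dapma7bEVm027047sc01581NoSplit), which carries activated fatty acids in the cytosol, was less steady, at 304, 472 and 673 TPM, lowest in replicate 1. A non-specific lipid-transfer protein had 142, 167 and 179 TPM, and scavenger receptor class B member 1 had 22.9, 29.0 and 25.6 TPM in its main record. Among phospholipases, left out of the lipases by the choice of words, putative phospholipase B-like 2 was the highest with 258, 203 and 218 TPM, and group 3 secretory phospholipase A2 had 80.2, 65.4 and 90.1 TPM. Oxysterol-binding protein 1 had 51.8, 54.7 and 47.2 TPM, and the putative phosphatidate phosphatase records summed to 13.9, 18.7 and 23.8 TPM.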

How the data were processed

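RNA of 3 wild-type pools was sequenced by the authors as oligo(dT)-enriched libraries. Reads were mapped by CLC Genomics Workbench 12 to the wFleaBase genome, and the deposited counts are the authors' unnormalized totals for each gene record. The deposited RPKM and TPM values were scaled by the authors by record length, RPKM to a library total of which gene records held 80.5%, 80.8% and 82.5%, and TPM to 1 sum for all libraries. The signal that the deposited table heads CPM is a scaled count and was not used for results. Which genome version and strand setting were used is not given in the sources used here. Descriptions and GO (gene ontology) terms came from Blast2GO. Coordinates are those of the deposited scaffolds, and none of the record names matched a reference table.

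TMM effective library sizes and the BCV of each record were computed with edgeR 4.0.16 (R 4.3.3), and counts over those sizes are called CPM. The BCV came from an intercept-only model at a mean CPM of at least 1, with each value drawn towards the trend. Other steps ran in Python 3.11.15 with scipy 1.17.1, pandas 2.3.3 and numpy 2.4.6, and figures were drawn with matplotlib 3.10.9. Counts were tested for homogeneity by chi-square for each record whose mean count reached 10 (Benjamini-Hochberg, 0.05), tested on simulated data. The test and the 2-fold rule were applied to all records. The labels do not say that pools came from separate cultures, while the study's methods repeat each treatment for triplicate sampling of singly cultured animals. They state that the present libraries were made elsewhere, citing another report, with the same methods and culture conditions. The spread may hold differences between pools and between preparations. Record lengths were recovered from counts and RPKM, all whole within 0.01. No group contrast exists, and the labels' single group took every library. DESeq2 1.42.0 size factors, other filters and thresholds, leaving out each library and records without overlap were tried as alternatives.

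Members, families and lists were chosen with earlier results of these data known. Named records were the listed members, the 3 highest by TPM in each family and pathway word, those with 1 library apart, the 5 largest and 5 smallest BCV values at a mean CPM of at least 10, and runs of at least 3 members within 100 kb. Receptor-related proteins 1, 4 and 6 and the members named for overlap or as an exception were chosen after their values were seen.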

Additional observations from a re-analysis of the deposited data

How the results depend on the processing

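Of 76 values recomputed under alternatives, 46 stayed within the spread between libraries or, for counts, within 1.5 times. The count of lipid records beyond counting noise was 13 of 23 without overlapping records (56.5%, against 50.1% of all records) and 33 of 48 at a mean count of at least 50 (68.8%, against 63.8%), and 24 to 39 when a replicate was left out, against 46 of 70. Records with 1 library apart numbered 10 of 41 at a 1.5-fold threshold (24.4%, against 16.9% of all records), 18 of 71 with a mean CPM of at least 1 (25.4%, against 12.7%) and 1 of 13 without overlapping records (7.69%, against 1.96%). The lipid share was 0.925% of the deposited TPM and 0.495% of counts without the glycoprotein, and 1.69 to 1.99% when a replicate was left out. The median level on the log2(CPM + 1) scale was 1.11 over 135 members at any count, against 3.26 over 86. Over all records it was 0.148, against 3.05. When a replicate was left out it was 2.93 to 2.99 over 88 to 96 members, and 2.79 to 2.84 over all records. The median BCV was 0.219 at a mean CPM of at least 10 (0.214 over all records), against 0.286 (0.263 over all records). When a replicate was left out it was 0.241 to 0.313 (0.215 to 0.324 over all records). Without replicate 2 the lipid value of 0.313 was below that of all records, 0.324. At a mean CPM of at least 10 the median deviation was 0.044 in replicate 1 and -0.013 in replicate 2, both with the opposite sign (0.080 and -0.015 over all records). Without overlapping records it was 0.0097 in replicate 2 (-0.032 over all records). In records of at least 2000 bases it was 0.18 in replicate 1 and -0.11 in replicate 3 (0.13 and -0.16 over all records). In shorter ones it was -0.29 in replicate 1 (-0.03 over all records). The alternatives by record length, without the glycoprotein and for the acid lipases were chosen after seeing the data. DESeq2 size factors moved none of these summary values beyond the spread. The cause of these differences was not tested, and the alternatives also differ in the number of records or libraries. No paired analysis was possible because the series holds 1 group. At 8679171 to 9092389 counts per library, a count of 0 allows a level of up to 0.309 to 0.354 CPM.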
